A study of Mus musculus with 56 samples.

Results

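The cerebellum of mice with a heterozygous deletion of the Sult1a1-Spn interval (Del/+) was compared with that of wildtype (wt) mice, over all probe sets of the array and as a difference between the 2 genotypes. The comparison took in 9 of the 56 arrays of the series, 3 from Del/+ and 6 from wt mice, chosen by their labelled tissue and genotype. The Del/+ mice lack 1 copy of a stretch of mouse chromosome 7 that corresponds to human 16p11.2, an allele made by Cre-mediated recombination in vivo, and no treatment is given for either genotype. All animals were adult males on the C57BL/6N background whose tissue was taken after behavioural tests, with 1 Affymetrix Mouse Gene 2.1 ST array per mouse. Arrays are called here by genotype and by the mouse number in their label, so that Del/+ 26, 28 and 17 were compared with wt 10, 48, 25, 20, 49 and 16. Del/+ 26 and wt 10 and 48 have neighbouring array numbers, as do Del/+ 28 with wt 25 and 20, and Del/+ 17 with wt 49 and 16, which gives 3 sets of 1 Del/+ and 2 wt arrays each.

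In people, deletion of the 16p11.2 interval is a frequent cause of developmental delay and autism spectrum disorder. The cerebellum is dominated in cell number by granule cells, whose parallel fibres excite Purkinje cells, the only output of the cerebellar cortex, and it holds cells of the choroid plexus of the fourth ventricle where that tissue is dissected along with it. A gene left with 1 copy can give less messenger RNA in proportion, which on the log2 scale used throughout would be a difference of -1 where signal follows copy number, or can be compensated in part.

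Signals were log2 values per probe set, quantile normalized by the authors, and the medians of the 9 arrays lay between 4.85 and 4.87. A signal was called near background when it was under 4.03, the 95th percentile of 1401 olfactory and vomeronasal receptor probe sets in wt cerebellum. Markers of the cerebellum were present on all arrays. The means of 18 Purkinje cell genes lay between 9.11 and 9.32 in Del/+ and between 9.22 and 9.28 in wt arrays, and those of 19 granule cell genes between 9.81 and 9.85 in Del/+ and between 9.77 and 9.93 in wt arrays, none of these genes being near background in wt. Mouse number 17 carries a Del/+ label on its cerebellum array and a wt label on its hippocampus and liver arrays. The mean signal of the region genes on the cerebellum array of number 17 lay 0.60 below the wt mean, as on the other Del/+ arrays, and on its hippocampus array 0.01 above that of the other wt arrays. Choroid plexus markers differed widely between the arrays and are given with the results below. In whole tissue, fewer cells of a type and less RNA per cell cannot be told apart.

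The interval, from Sult1a1 to Spn (chromosome 7, 126672865 to 127145552, GRCm38), spans 472.7 kb and is represented by 33 probe sets, 28 of which list 1 gene and 5 several. They give 26 genes a probe set of their own, and 28 of the 33 passed the filter on low signal and low variance that the methods of the study describe. At a false discovery rate (FDR) of 5% in limma, 12 of these 28 fell in Del/+ cerebellum and 0 rose, against 0.0722% of the 19389 kept probe sets called lower and 0.0% called higher. Of the 14 probe sets called in all, 12 list a gene of the region and the other 2 list no gene. Del/+ values lay below every wt value in 24 of the 28 kept probe sets of the region, where 1.33% of all kept probe sets did so, and above every wt value in 0, against 1.21% of all. At an unadjusted p under 0.05, 26 of the 28 were lower and 0 higher, against 2.73% lower and 2.31% higher among all kept probe sets.

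The mean signal over the 26 genes with their own probe set was 5.96, 6.00 and 5.97 in Del/+ 26, 28 and 17, against 6.55, 6.57, 6.65, 6.61, 6.58 and 6.50 in wt 10, 48, 25, 20, 49 and 16. The 3 Del/+ arrays lay close together and clear of all wt arrays. Means were 5.98 ± 0.0213 in Del/+ and 6.58 ± 0.0510 in wt mice (SD, n = 3 and 6), a difference of -0.60, or 0.662 times the wt signal on the linear scale. Within the 3 array sets the difference was -0.60, -0.62 and -0.57. Over the 21 kept genes the median difference was -0.72, a ratio of 0.608, with single genes between 0.508 and 0.740 times wt.

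**Figure D1:**
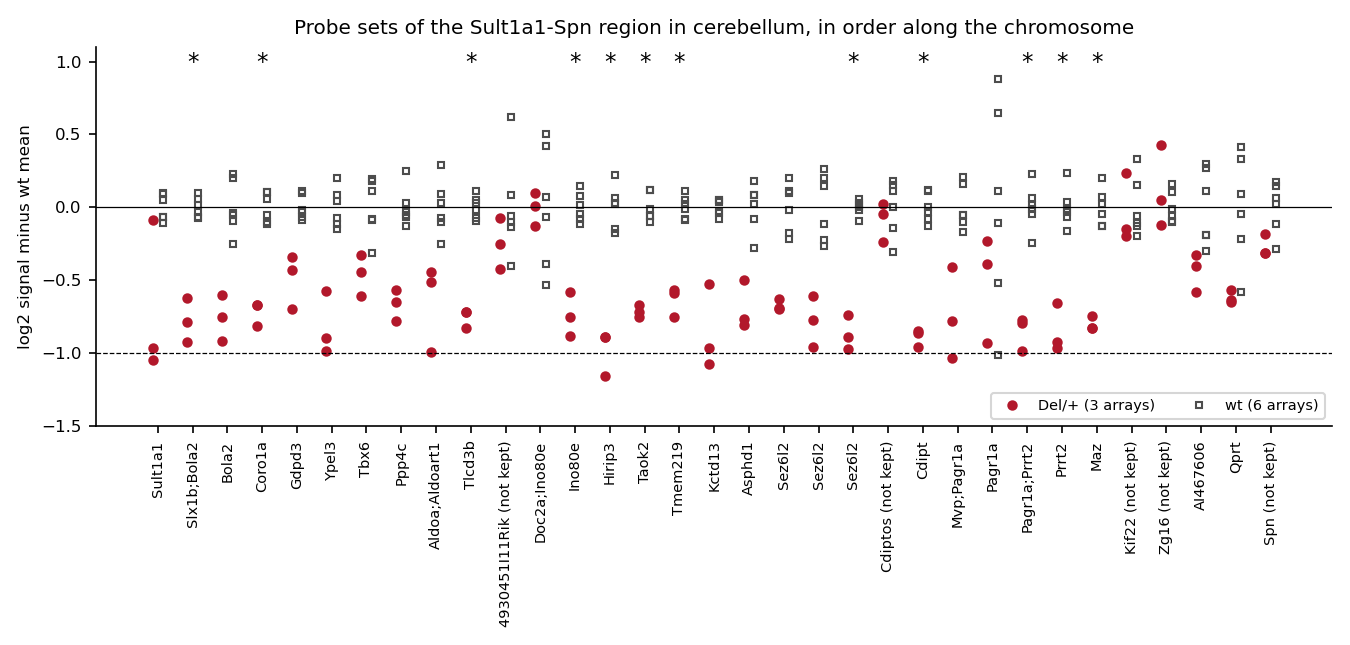
Log2 signal minus the wt mean (vertical axis) of each probe set of the interval in its order along chromosome 7 (horizontal axis), with filled circles for the 3 Del/+ arrays and open squares for the 6 wt arrays. Stars mark the 12 probe sets called at 5% FDR, the dashed line is at -1, and in 24 of the 28 kept probe sets every Del/+ point lies under every wt point.

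Genes of the synapse and the neuronal surface were among those that fell. Prrt2, a presynaptic protein whose loss causes paroxysmal movement disorders in people, had signals of 10.79, 10.52 and 10.48 in Del/+ 26, 28 and 17, and a lowest, median and highest signal of 11.28, 11.42 and 11.68 in wt arrays. The groups were separated by a gap on every array. The difference was -0.85 (standard error 0.11, 95% interval -1.10 to -0.59, adjusted p = 0.0389 in limma), or 0.556 times wt. A probe set listed jointly for Prrt2 and its neighbour Pagr1a also fell, by 0.85 (adjusted p = 0.0389). Sez6l2, a membrane protein of the Sez6 family that takes part in synapse formation, had 8.79, 8.64 and 8.56 in Del/+ arrays, against 9.44, 9.54 and 9.59 (lowest, median and highest) in wt arrays. All Del/+ values were again below all wt values, with a difference of -0.87 (standard error 0.08, adjusted p = 0.0144), the smallest adjusted p among the region genes together with that of Cdipt. The other 2 probe sets of Sez6l2 had differences of -0.78 and -0.67 and no overlap between genotypes, but adjusted p of 0.326 and 0.147.

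Taok2, a kinase of the TAO family that acts upstream of stress-activated kinases and in dendrite growth, had 8.34, 8.37 and 8.42 in Del/+ and 8.99, 9.06 and 9.21 (lowest, median and highest) in wt arrays, and fell by 0.71 (standard error 0.09, adjusted p = 0.0277). Coro1a, an actin-binding coronin of leukocytes and neurons, had 6.54, 6.40 and 6.54 in Del/+ and 7.10, 7.21 and 7.32 in wt arrays and fell by 0.72 (adjusted p = 0.0379). Neither gene's genotypes overlapped. Kctd13, which links RhoA to cullin-3 ubiquitin ligases, had 7.86, 8.30 and 7.75 in Del/+ arrays, against 8.75, 8.83 and 8.88 in wt arrays. The wt arrays were tightly grouped and the Del/+ arrays were spread, Del/+ 28 standing above the other two. With a difference of -0.85 (standard error 0.12) and an adjusted p of 0.0501, Kctd13 just missed the 5% threshold.

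Among genes of lipids and membranes, Cdipt, the enzyme that makes phosphatidylinositol, had 9.09, 9.19 and 9.20 in Del/+ and 9.92, 10.04 and 10.17 (lowest, median and highest) in wt arrays. Its difference of -0.89 (standard error 0.09, adjusted p = 0.0144) corresponds to 0.539 times wt. Tlcd3b, a TLC-domain protein linked to ceramide synthesis, had 6.96, 7.07 and 7.07 in Del/+ and 7.70, 7.80 and 7.90 in wt arrays and fell by 0.76 (adjusted p = 0.0231). Tmem219, known in human cells as a receptor of IGFBP3, had 5.75, 5.93 and 5.91 in Del/+ and 6.41, 6.50 and 6.61 in wt arrays and fell by 0.64 (adjusted p = 0.0424), the smallest fall of the 12. In each of these genes the genotypes were apart on all arrays. Gdpd3, a glycerophosphodiesterase, also showed no overlap, at 4.78, 4.42 and 4.69 in Del/+ and 5.03, 5.09 and 5.23 in wt arrays, with a difference of -0.49 and an adjusted p of 0.394.

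The largest fall on the log2 scale among the region genes called was that of Hirip3, a histone-binding partner of the chaperone HIRA. Its signals were 5.31, 5.31 and 5.04 in Del/+ and 6.02, 6.23 and 6.42 (lowest, median and highest) in wt arrays, a difference of -0.98 (standard error 0.11, 95% interval -1.23 to -0.72, adjusted p = 0.0277), or 0.508 times wt. Of the other nuclear genes, the zinc finger factor Maz fell by 0.80 (adjusted p = 0.0277), with 7.70, 7.70 and 7.78 in Del/+ and 8.40, 8.52 and 8.73 in wt arrays. Ino80e, a subunit of the INO80 chromatin remodeller, fell by 0.74 (adjusted p = 0.0389), with 6.30, 6.60 and 6.43 in Del/+ and 7.07, 7.17 and 7.33 in wt arrays. No wt array reached down to a Del/+ value in these genes. The probe set listed jointly for Slx1b, a subunit of a structure-specific nuclease, and Bola2, which handles iron-sulphur clusters, fell by 0.78 (adjusted p = 0.0277), and Bola2 alone had -0.76 (adjusted p = 0.159).

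Just short of the 5% threshold, and without overlap, lay Ypel3, a yippee-like growth suppressor, at -0.82 (adjusted p = 0.0687), and Ppp4c, the catalytic subunit of protein phosphatase 4, at -0.67 (adjusted p = 0.0976), which together with Kctd13 made 15 probe sets at 10% FDR. Asphd1, related to aspartate hydroxylases, had -0.69 (adjusted p = 0.200), and the probe set listed jointly for the vault protein gene Mvp and Pagr1a had -0.74 (adjusted p = 0.334). The glycolytic Aldoa, listed jointly with Aldoart1, had -0.65 (adjusted p = 0.531) and the T-box factor Tbx6 -0.46 (adjusted p = 0.826). AI467606, whose Del/+ signals were near background and whose wt mean was 4.23, had -0.43 (adjusted p = 0.977). All 28 kept probe sets had a difference below 0, and in 27 it was below 0 in each of the 3 array sets.

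In 4 kept probe sets the genotypes overlapped. The sulfotransferase gene Sult1a1 had 4.33, 5.21 and 4.25 in Del/+ and 5.19, 5.29 and 5.40 (lowest, median and highest) in wt arrays, so that Del/+ 28 alone sat among the wt arrays (difference -0.70, adjusted p = 0.779). Qprt, which feeds quinolinate into NAD synthesis, had 4.12, 4.19 and 4.11 in Del/+ and 4.18, 4.78 and 5.17 in wt arrays, with only wt 16 inside the Del/+ range (difference -0.62, adjusted p = 0.915). Pagr1a, a partner of histone methyltransferases, was spread from 4.43 to 6.32 among wt arrays and had 4.51, 5.05 and 5.21 in Del/+ arrays (difference -0.52, adjusted p = 0.977). The probe set listed jointly for Doc2a, a calcium sensor of transmitter release, and Ino80e had 4.61, 4.47 and 4.70 in Del/+ and 4.07, 4.60 and 5.10 in wt arrays, a difference of -0.01 (95% interval -0.51 to 0.50). The filter removed 5 genes, among them the kinesin gene Kif22, the lectin gene Zg16 and Spn, which encodes the leukocyte surface protein CD43. Spn had a difference of -0.27 (unadjusted p = 0.0371) near background, and Kif22, Zg16, Cdiptos and 4930451I11Rik had -0.04, 0.12, -0.09 and -0.25 (unadjusted p between 0.229 and 0.794).

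The median difference was smaller in size among region genes of low signal. Of the kept genes, 6 had a wt mean under 6, a value chosen after the data were seen, with a median difference of -0.50, a median standard error of 0.17 and 0 calls, and the 15 others had -0.76, 0.10 and 10 calls. The 95% interval lay wholly above -1 in 14 of the 28 kept probe sets, 6 of them called lower, and reached below -1 in the other 14. The count of 12 depended on each array. Without wt 25 it was 5, without Del/+ 28 it was 1, and without any 1 of Del/+ 26, Del/+ 17, wt 10, wt 48, wt 20, wt 49 or wt 16 it was 0, while 25 or 26 of the 28 stayed at an unadjusted p under 0.05 in every case and the median difference of the kept genes stayed between -0.74 and -0.72. With the array set as a block it was also 0 at 5% FDR, with a smallest adjusted p of 0.0713, and 13 at 10% FDR.

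Next to the interval, 63 genes within 1 Mb on either side had their own probe set and 31 were kept, 9 before Sult1a1 and 22 after Spn. The genotypes overlapped in all 31, with differences between -0.45 and 0.24 and a median of -0.02. Among the kept genes only 9130019O22Rik, at 5.52, 5.07 and 5.54 in Del/+ and 5.32, 5.95 and 5.98 (lowest, median and highest) in wt arrays, had an unadjusted p under 0.05 (0.0261, adjusted p = 0.977). The next were the calcium channel gene Orai3 (0.24), Sgf29 (-0.20), which ends before the first base of Sult1a1, and Zfp768 (-0.14). The zinc finger gene Zfp553, after Spn, was removed by the filter, and was named after its values were seen. It had 6.10, 5.92 and 5.81 in Del/+ and 6.12, 6.19 and 6.22 (lowest, median and highest) in wt arrays, without overlap (difference -0.23, unadjusted p = 0.0199). Sh2b1, an adaptor of leptin and insulin receptors in the neighbouring interval, was also removed by the filter and had a difference of -0.01 (95% interval -0.23 to 0.21). None of the kept flanking genes passed at 5% FDR.

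**Figure D2:**
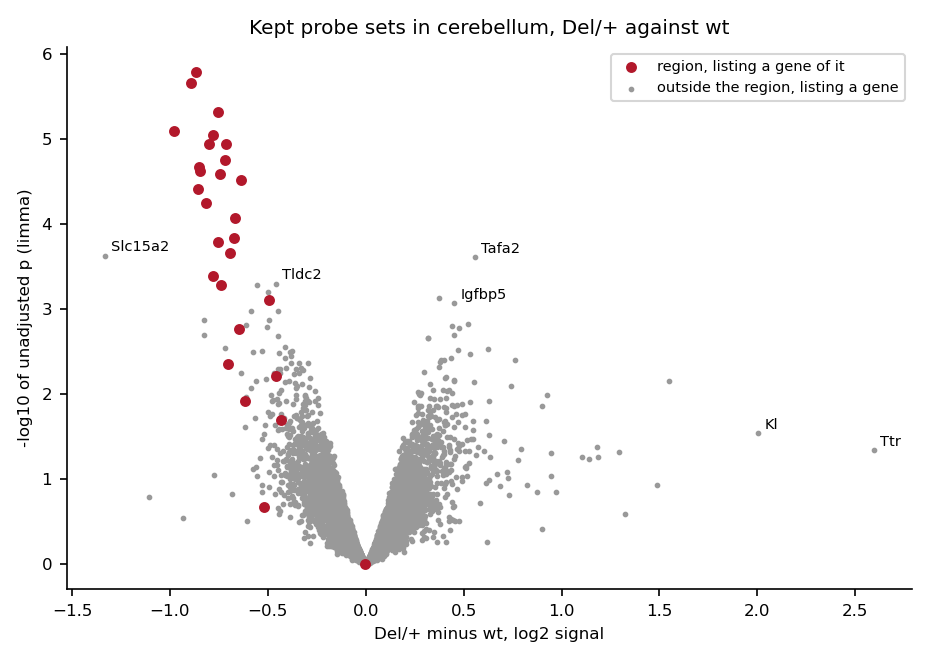
Difference in log2 signal, Del/+ minus wt (horizontal axis), against -log10 of the unadjusted limma p (vertical axis) for kept probe sets that list a gene, large points for the interval and small points for genes outside it. The region points lie left of 0, the joint Doc2a and Ino80e probe set only just so at -0.01. Slc15a2 stands farthest to the left and the choroid plexus genes Kl and Ttr on the right with unadjusted p of 0.0283 and 0.0454.

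Outside the interval, 0 of 10966 kept probe sets that list a gene passed at 5% or at 10% FDR, and 472 had an unadjusted p under 0.05, 236 higher and 236 lower in Del/+. The smallest adjusted p was 0.207. The genes named here, the 10 with the smallest p and those with the largest separated differences, are therefore given by their values, and none of them passed the test. Of the 9581 kept genes outside the interval, each taken by its brightest probe set, 63 met 3 conditions. They showed no overlap between genotypes, the same sign in all 3 array sets and an unadjusted p under 0.01. Of these 63, 24 were higher and 39 lower in Del/+, a split that was not tested. By lack of overlap alone, 1.21% of all kept probe sets were higher and 1.33% lower.

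Slc15a2 (chromosome 16, 36750161 to 36785158) encodes PEPT2, a proton-coupled carrier of di- and tripeptides known from astrocytes and the choroid plexus. It had 6.48, 5.85 and 5.77 in Del/+ 26, 28 and 17, and 7.02, 7.85, 7.02, 7.54, 7.08 and 7.67 in wt 10, 48, 25, 20, 49 and 16. Every Del/+ array was below every wt array, Del/+ 26 being the nearest to them. The difference was -1.33 (standard error 0.24, 95% interval -1.86 to -0.80, unadjusted p = 0.000235, adjusted p = 0.207), or 0.397 times wt, larger than in any of the 28 kept probe sets of the interval. Within the array sets it was -0.96, -1.43 and -1.61. The 3 Dup/+ cerebella, which carry an extra copy of the interval, had 7.69, 7.51 and 7.15, inside the range of wt.

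Slc15a2 was then compared across 3 brain regions. In the hippocampus the gene ranged between 7.70 and 7.93 in 4 Del/+ and between 7.73 and 7.92 in 8 wt arrays, and in the striatum between 7.21 and 7.41 in 4 Del/+ and between 7.09 and 7.62 in 8 wt arrays. The genotypes overlapped in both. Del/+ minus wt in the cerebellum differed from that in the hippocampus by -1.32 (standard error 0.20, adjusted p = 0.00682, limma contrast) and from that in the striatum by -1.22 (standard error 0.20, adjusted p = 0.0240). The contrasts use 1 variance over the 3 regions. The SD in Del/+ and wt was 0.39 and 0.37 in cerebellum, 0.10 and 0.06 in hippocampus, and 0.09 and 0.18 in striatum. The standard error of 0.20 is therefore below that of the cerebellum difference alone, 0.24, and understates the cerebellar spread. In each contrast 1 of 19389 probe sets, 0.00516%, passed at 5% FDR, and it was Slc15a2 both times, although the contrasts share the cerebellum arrays. The call was lost without Del/+ 28 (adjusted p = 0.106 and 0.0905, against hippocampus and striatum), without Del/+ 17 (0.130 and 0.228) and when only the 2 tissues compared were fitted (0.206 and 0.988). At an unadjusted p under 0.05, 954 probe sets differed against the hippocampus and 927 against the striatum.

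None of the 28 kept probe sets of the interval passed in either contrast, and at an unadjusted p under 0.05 there was 1 against the hippocampus, the joint Doc2a and Ino80e probe set (0.89), and 0 against the striatum. The median difference of the 21 kept genes was -0.72 in the cerebellum, -0.66 in the hippocampus and -0.67 in the striatum.

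**Figure D3:**
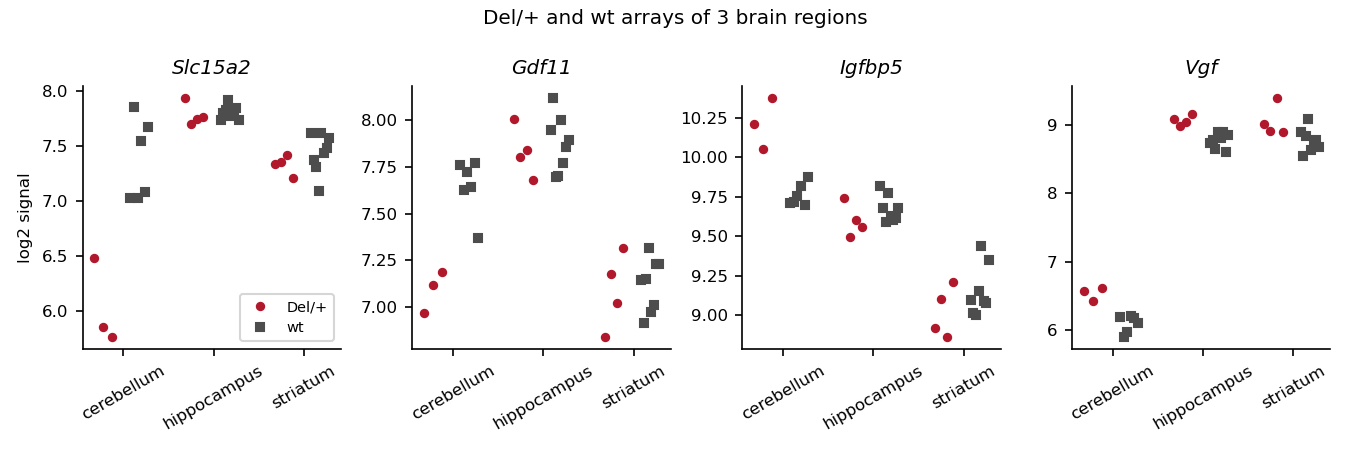
Log2 signal (vertical axis) of Slc15a2, Gdf11, Igfbp5 and Vgf in Del/+ (circles) and wt arrays (squares) of 3 brain regions, 1 point per array. The Slc15a2 points of Del/+ cerebellum lie under all others in the panel, whereas the Vgf points of Del/+ have the higher mean in all 3 regions.

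Further genes lower in value in Del/+ included a growth factor and an ion channel. Gdf11 (chromosome 10, 128880524 to 128891718), a ligand of the TGF-beta family that limits neuron number, had 6.97, 7.12 and 7.19 in Del/+ arrays, against 7.37, 7.68 and 7.77 (lowest, median and highest) in wt arrays. The groups were apart, and the wt array nearest to Del/+ was wt 16. The difference was -0.56 (standard error 0.11, unadjusted p = 0.000517, adjusted p = 0.334), and Dup/+ arrays had 7.68, 8.02 and 7.88. Pkd2l1, a polycystin channel of neurons that contact the cerebrospinal fluid, had 3.98, 4.17 and 3.71 in Del/+ arrays, around background, and 4.31, 4.76 and 5.16 in wt arrays (difference -0.83, adjusted p = 0.598). In the other 20 kept genes of sodium, calcium, HCN and polycystin channels, 0 had an unadjusted p under 0.05, the next in order being Cacna1h (0.29), Hcn3 (0.16) and Scn2a (-0.10), and the median over all 21 was 0.01.

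Tldc2 (chromosome 2, 157076627 to 157096948), a protein with a TLDc domain, had 7.27, 7.58 and 7.43 in Del/+ arrays, and 6 wt arrays within 7.81 to 7.94. The wt arrays were almost equal and the Del/+ arrays all below them (difference -0.46, standard error 0.09, adjusted p = 0.334). Tgfb1i1 (chromosome 7, 128246812 to 128255699), a focal adhesion protein also called Hic-5, lies on the chromosome of the interval, beyond Spn, and had 5.87, 6.09 and 5.84 in Del/+ and 6.30, 6.42 and 6.58 (lowest, median and highest) in wt arrays (difference -0.50, adjusted p = 0.347). Both groups of Tgfb1i1 were apart. Separated differences were also seen in Xlr3a, an X-linked lymphocyte-regulated gene, at -0.82 (adjusted p = 0.529), Muc3a at -0.59 (0.479), Trhr2, a receptor of thyrotropin-releasing hormone with Del/+ signals under background, at -0.49 (0.529), 2610528A11Rik at -0.57 (0.751) and A930017K11Rik at -0.45 (0.479).

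Higher in value in Del/+ was Igfbp5 (chromosome 1, 72858065 to 72874865), which binds insulin-like growth factors. It had 10.21, 10.05 and 10.38 in Del/+ arrays, against 9.71, 9.72, 9.76, 9.82, 9.70 and 9.87 in wt 10, 48, 25, 20, 49 and 16. All Del/+ arrays lay above all wt arrays, with a difference of 0.45 (standard error 0.10, unadjusted p = 0.000857, adjusted p = 0.415), and Dup/+ arrays lay below them, at 9.36, 9.32 and 9.52. In the hippocampus and the striatum Del/+ minus wt was -0.07 and -0.13 for this gene. Of the 14 kept genes of the insulin-like growth factor system, 1 had an unadjusted p under 0.05, Igfbp5 itself, and the next were the protease Pappa2 (-0.38), Igfbp2 (0.34) and the receptor adaptor Grb10 (-0.12), with a median of -0.01.

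Tagln, an actin-binding protein of smooth muscle, had 5.12, 5.15 and 5.22 in Del/+ and 4.71, 4.79 and 4.85 (lowest, median and highest) in wt arrays (difference 0.37, adjusted p = 0.392), without overlap. Of the 14 kept mural and meningeal genes it was the only one at an unadjusted p under 0.05, and the list had a median of -0.02. Tafa2, a secreted chemokine-like protein of neurons, had 4.07, 3.93 and 3.95 in Del/+ and 3.31, 3.39 and 3.66 in wt arrays, all wt signals being under background, a difference of 0.56 (adjusted p = 0.207), and Dup/+ arrays had 4.03, 4.24 and 3.90, also above every wt array. Other separated differences upward were those of Prokr2, a prokineticin receptor, at 0.74 (adjusted p = 0.851), of the zinc finger genes Zfp975 and Zfp352 at 0.62 (0.749) and 0.55 (0.826), of Jhy, needed for cilia of the ependyma in mice, at 0.53 (0.764), and of the adhesion protein Mpzl2 at 0.48 (0.529).

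**Figure D4:**
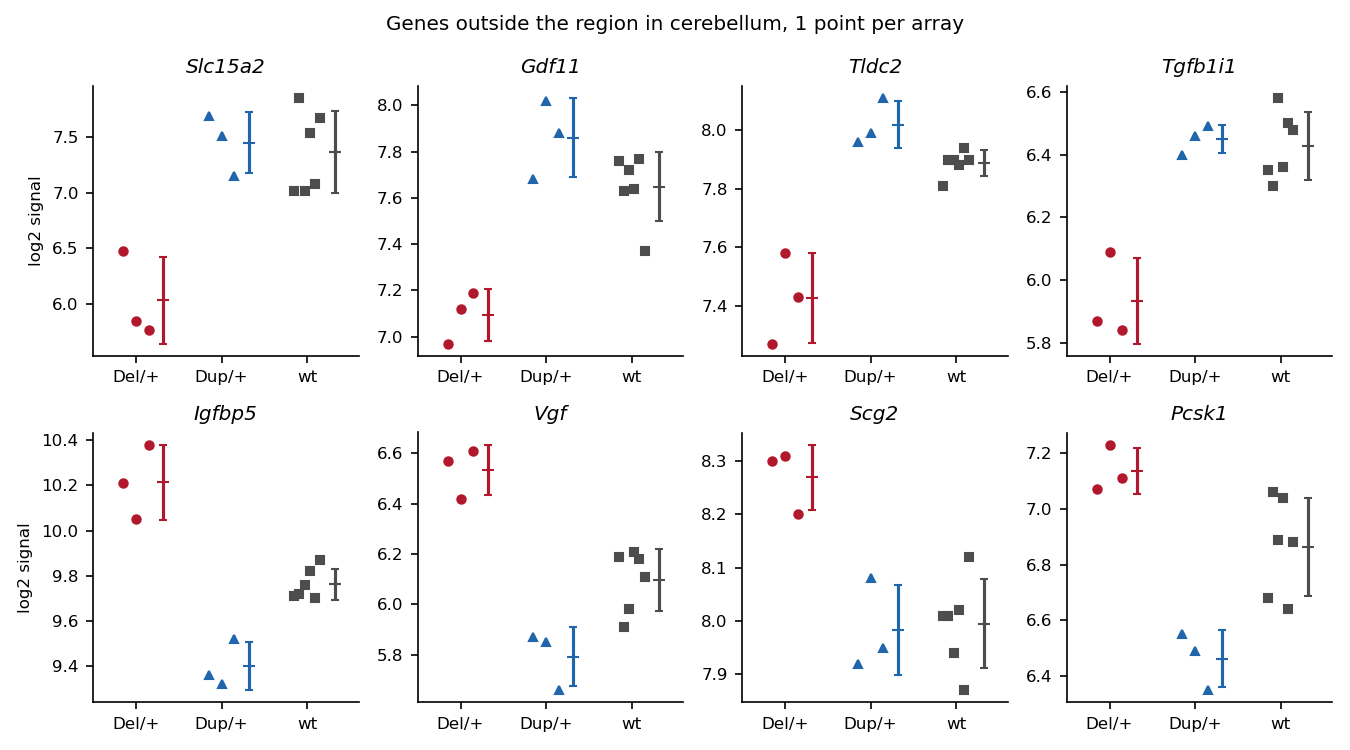
Log2 signal (vertical axis) of 8 genes outside the interval in cerebellum, 1 point per array for 3 Del/+, 3 Dup/+ and 6 wt mice, with mean and SD beside the points. Del/+ lies under wt in the first 4 panels and above it in the last 4, and none of the 8 genes passed at 10% FDR.

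Vgf, a granin-related precursor of neuropeptides that neuronal activity and neurotrophins induce, had 6.57, 6.42 and 6.61 in Del/+ and 5.91, 6.14 and 6.21 (lowest, median and highest) in wt arrays, a difference of 0.44 (standard error 0.10, unadjusted p = 0.00158, adjusted p = 0.529). Scg2, or secretogranin II, had 8.30, 8.31 and 8.20 in Del/+ and 7.87, 8.01 and 8.12 in wt arrays (difference 0.27, adjusted p = 0.884). Pcsk1, the convertase that cuts such precursors, had 7.07, 7.23 and 7.11 in Del/+ and 6.64, 6.88 and 7.06 in wt arrays (difference 0.27, adjusted p = 0.977). The genotypes were apart in these 3 genes, narrowly so in Pcsk1. Of 21 kept genes of granins, neuropeptides and prohormone processing, 3 were higher and 1, the natriuretic peptide gene Nppc (-0.24), lower at an unadjusted p under 0.05, beside 203 higher and 213 lower of 9581 kept genes outside the interval. In the hippocampus Vgf ranged between 8.99 and 9.15 in Del/+ and between 8.59 and 8.89 in wt arrays, without overlap (difference 0.29, adjusted p = 0.463). In the striatum it ranged between 8.89 and 9.39 in Del/+ and between 8.55 and 9.08 in wt arrays (difference 0.28, adjusted p = 0.986). Mouse numbers recur between the brain regions, so these comparisons are not independent of each other. The median of the granin list was 0.05 and that of all these genes 0.00, and the abundant granins Chga and Chgb had 0.07 and -0.15.

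Granin and convertase genes are textbook targets of the transcription factor CREB, which binds the palindrome TGACGTCA. The promoters of Scg2 and Pcsk1 are printed here because both hold this motif (in capitals) and both genes were higher in value in all Del/+ arrays. The match of motif and higher value in these genes follows from that choice, and neither gene passed at 5% FDR. Sequences are RefSeq, GRCm38.p6, 5′ to 3′ on the strand of the gene, 250 bases before to 50 after its start, with a second motif, GGGCGG on either strand (the GC box, in 35.88% of 32544 promoters), also in capitals.
Scg2, chr1:79439977-79440276, minus strand: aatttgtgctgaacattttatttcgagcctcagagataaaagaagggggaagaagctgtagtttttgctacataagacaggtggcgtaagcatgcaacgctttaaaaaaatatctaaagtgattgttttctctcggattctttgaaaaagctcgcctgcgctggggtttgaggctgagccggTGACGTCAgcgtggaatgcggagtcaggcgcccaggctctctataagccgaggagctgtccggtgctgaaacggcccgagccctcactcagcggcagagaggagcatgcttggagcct
Pcsk1, chr13:75089607-75089906, plus strand: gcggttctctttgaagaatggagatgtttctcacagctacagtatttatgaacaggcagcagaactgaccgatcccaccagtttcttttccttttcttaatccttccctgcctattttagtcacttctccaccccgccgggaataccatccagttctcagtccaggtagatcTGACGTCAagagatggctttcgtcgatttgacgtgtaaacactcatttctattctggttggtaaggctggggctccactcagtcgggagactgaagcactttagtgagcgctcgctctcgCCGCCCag
The CREB motif starts 68 bases before the start of Scg2 and 78 before that of Pcsk1, and 1.80% of the 32544 promoters hold it on either strand. Of the 17 kept genes of the granin list with a promoter in the table, 5 hold it, Scg2, Pcsk1, Chgb, Sst and Cartpt. These 5 had a median difference of 0.07, and the 12 without it had a median of 0.04. Vgf had no promoter there, so it was not checked for the motif and is in neither median. Chgb, the somatostatin gene Sst and Cartpt carry the same letters and had differences of -0.15, 0.07 and 0.04. Whether CREB acts on any of these genes was not tested. A match describes the letters of the window, not a site in use. Of 23 kept activity-regulated immediate early genes, 0 had an unadjusted p under 0.05, with a median of 0.01, the smallest p being those of Nptx2 (-0.21), Egr2 (-0.25), Btg2 (-0.15) and Sik1 (0.22).

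The partners of proteins encoded in the interval were measured next. Of 11 kept genes of cullin-3 and RhoA that act with Kctd13, 0 had an unadjusted p under 0.05 and the median was -0.06, the smallest p being those of the cofilin kinase Limk1 (0.16), Arhgdib (-0.16), Kctd10 (-0.16) and Arhgef2 (-0.12). Of 19 kept genes of the ERK cascade and its feedback, there were 0 with a median of 0.03, led by the ETS factors Etv5 (0.23) and Etv4 (0.21), Spry2 (-0.14) and the phosphatase gene Dusp4 (0.14). Phosphoinositide turnover, which uses the product of Cdipt and carries metabotropic signals in Purkinje cells, had 0 of 17 with a median of -0.03, led by the phospholipases Plcb1 (0.23) and Plcb3 (-0.14), the receptor channel Itpr3 (-0.16) and Inpp4b (-0.13). Against these medians, that of the kept genes of the interval was -0.72.

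Genes of cerebellar neurons and their synapses had small differences. Of 18 kept Purkinje cell genes, 0 had an unadjusted p under 0.05, led by the glutamate carrier Slc1a6 (-0.15), Lhx5 (0.22), Kcnab1 (-0.23) and Dner (0.10). Of 19 granule cell genes, the calcium buffer Calb2 had -0.33 (unadjusted p = 0.0231, adjusted p = 0.977), followed by Neurod2 (0.16), Barhl1 (0.22) and the GABA receptor subunit Gabra6 (-0.14). List medians were -0.01 and 0.00. Among 10 genes of molecular layer interneurons, Prkcd had 0.24 (unadjusted p = 0.0278), with Kit (0.10), Gad1 (-0.12) and Slc32a1 (0.10) next. The parallel and climbing fibre synapse had 0 of 23 at an unadjusted p under 0.05, with Dlg4 at 0.19, Gria3 at 0.14, Cbln3 at -0.11 and Prkca at 0.10. In synaptic vesicle release 2 of 31 were higher, Sv2c (0.26) and Rab3c (0.26), and 2 lower, the active zone gene Erc1 (-0.26) and Cplx3 (-0.52), at an unadjusted p under 0.05. Over all kept genes outside the interval 2.12% were higher and 2.22% lower at that threshold, the shares against which the counts of each list stand.

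In Bergmann glia and astrocytes 1 of 18 genes had an unadjusted p under 0.05, the receptor Fgfr3 (0.25), followed by Hopx (-0.24), S100b (-0.15) and Itih3 (-0.10). Of 27 genes of BMP, activin and TGF-beta signalling, Gdf11 was lower and the activin subunit gene Inhba higher (0.40, unadjusted p = 0.0468), with Bmp2 (-0.33) and Inhbb (0.28) next and a median of 0.01. Among 15 chaperone genes, Hspa1b (0.49, unadjusted p = 0.0174) and Bag3 (0.27, 0.0241) were higher, ahead of Hspa1a (0.19) and Sdf2l1 (0.39), with a median of 0.01. Of 13 kept interferon-stimulated genes, 12 had a difference above 0 where 49.5% of all genes did, with a median of 0.22. Of them only Irf9 (0.25) had an unadjusted p under 0.05, before Rtp4 (0.33), Usp18 (0.29) and Ifi27 (0.20). Near background in wt were 5 of the 25 genes of that list with their own probe set, kept or not. The list mean was 5.571, 5.859 and 5.771 in Del/+ 26, 28 and 17, and between 5.446 and 5.625 in wt arrays. Del/+ 26 thus lay inside the wt range. All members were measured on the same arrays, so their signs are not independent of each other. With the choroid plexus covariate described below, the list median was 0.144. Of 12 cholesterol synthesis genes 1 had a difference above 0, with a median of -0.08, 0 at an unadjusted p under 0.05, and Srebf2 (-0.18), Stard4 (-0.19), Dhcr7 (-0.16) and Mvd (-0.23) in front. The 21 other lists looked at, from mural cells, microglia and oligodendrocytes to ion channels, the clock, ribosomes and respiration, had medians between -0.09 and 0.18, and of their 287 entries 5 were higher and 3 lower at an unadjusted p under 0.05, beside the 2.12% higher and 2.22% lower of all kept genes. Signs leaned to 1 side in some of these other lists too. A difference above 0 was seen in 9 of 10 endothelial genes, 6 of 7 Golgi and Lugaro cell genes and 6 of 23 ribosomal protein genes. No gene of any list passed at 5% FDR.

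Larger differences in value were those of choroid plexus genes, which mark the epithelium that secretes cerebrospinal fluid. Ttr, the transthyretin gene and the main marker of that epithelium, had 11.19, 12.37 and 12.52 in Del/+ 26, 28 and 17, and 9.53, 8.11, 7.33, 7.51, 12.18 and 11.94 in wt 10, 48, 25, 20, 49 and 16. All 3 Del/+ arrays were high, but so were wt 49 and 16, while the other wt arrays were low. The Dup/+ arrays 47, 45 and 19 had 12.35, 11.83 and 6.92. The difference was 2.59 with a standard error of 1.13 (unadjusted p = 0.0454, adjusted p = 0.977). Kl, which encodes klotho, had 6.18, 7.38 and 8.28 in Del/+ and 4.06, 4.63 and 7.24 (lowest, median and highest) in wt arrays (unadjusted p = 0.0283, adjusted p = 0.977), Tmem72 had a difference of 0.92 (unadjusted p = 0.0101) and the claudin gene Cldn2 of 0.56 (0.0517). Of 12 kept genes of the list, 11 were above 0, where 49.5% of all kept genes outside the interval were, and 3 were higher at an unadjusted p under 0.05, against 2.12% of all. The list had a median of 0.66. Of its 13 genes with their own probe set, 2 were near background in wt, Cldn2 and Steap1, of which the filter removed Steap1. The list mean was 5.44, 6.32 and 6.79 in Del/+ 26, 28 and 17, and 4.96, 4.83, 4.86, 4.79, 6.18 and 5.94 in wt 10, 48, 25, 20, 49 and 16. The genotypes overlapped over all arrays, but in each of the 3 array sets the Del/+ array was above both wt arrays, as it was for Ttr (within-set differences 2.38, 4.95 and 0.46) and Kl (1.78, 2.97 and 1.26).

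Htr2c, a serotonin receptor that choroid plexus expresses strongly, had 5.30, 6.08 and 6.67 in Del/+ and 3.82, 4.15 and 5.62 (lowest, median and highest) in wt arrays, so that Del/+ 26 lay within the wt range. With the array set as a block Htr2c and Trpv4, a calcium channel of the same epithelium, were the only 2 probe sets outside the interval at 10% FDR (differences 1.55 and 0.94, adjusted p = 0.0713 for both). These 2 genes were picked after their values were seen. With the list mean as a covariate, the difference of Slc15a2 was -1.13 (unadjusted p = 0.00405), that of Igfbp5 0.42 (0.00841), that of Gdf11 -0.57 (0.00371) and that of Tldc2 -0.53 (0.00116). Other named genes moved by more than 1.5 times, and only some of them are given here. Xlr3a had -0.53 (unadjusted p = 0.0184) with the covariate and -0.82 without it, Inhba 0.15 (0.449) and 0.40, and Nppc -0.15 (0.256) and -0.24. The interval gene Tbx6 had -0.25 (0.0846) with the covariate and -0.46 without it. Htr2c had 0.525 (unadjusted p = 0.0288) with the covariate and 1.55 without it, and Trpv4 0.036 (0.883) and 0.94. Some differences grew in size, as in Pagr1a with -1.08 (0.0268) and -0.52, and Bmp2 with -0.61 (0.00497) and -0.33. The median of the kept genes of the interval with the covariate was -0.71, with 24 of 28 lower at an unadjusted p under 0.05 and 0 called at 5% FDR. Beyond these values the part of choroid plexus tissue in the differences was not tested.

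**Figure D5:**
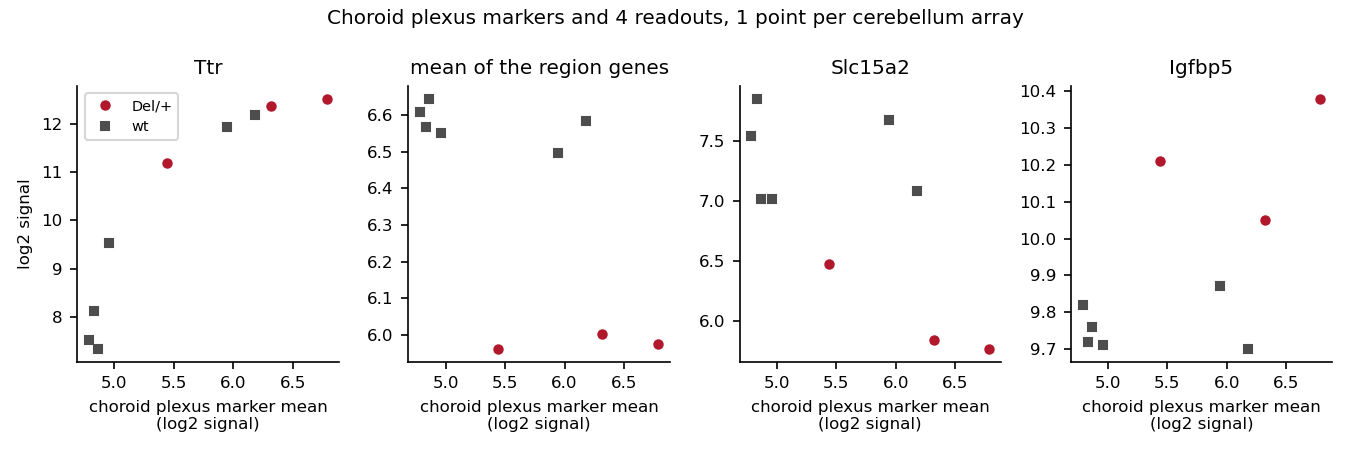
Mean log2 signal of 12 choroid plexus genes (horizontal axis) against the log2 signal of Ttr, of the region genes (mean), of Slc15a2 and of Igfbp5 (vertical axes), 1 point per cerebellum array, circles for Del/+ and squares for wt. Ttr follows the marker mean in both genotypes. The region mean of Del/+ lies between 5.96 and 6.00, at marker means from 5.44 to 6.79. That of wt lies between 6.50 and 6.65, at marker means from 4.79 to 6.18. No Del/+ array has a marker mean as low as the lowest of wt.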

How the data were processed

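Cerebellum RNA was measured on Affymetrix Mouse Gene 2.1 ST arrays, 1 per mouse. Signals were deposited on a log2 scale, 1 value per probe set, by the authors, who made them in Affymetrix Expression Console, quantile normalizing the 44 brain arrays together. The log2 scale was read from the range of the values, and background correction and probe summary are not given in the sources used here. Probe sets were kept, after the filter in the study's methods, where the highest signal reached the median of all and the variance was over the 25th percentile across the 44 brain arrays, leaving 19389 of 41155. Del/+ minus wt was tested with limma 3.58.1 in R 4.3.3, with Benjamini-Hochberg adjustment over the kept probe sets, and the script was checked on simulated data. No source says that the mice come from separate litters, so p-values measure the spread between these samples. The number of arrays limits the precision.

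Genes came from GEO's platform annotation, in which 23525 probe sets list 1 gene, 1816 several and 15814 none, and positions and promoters from RefSeq, GRCm38.p6. Each gene was represented by its brightest probe set. Named were all region genes, the 10 genes outside with the smallest p, the 6 largest rises and 6 largest falls without overlap, with the same sign in each array set and an unadjusted p under 0.01, the 4 members of each described list with the smallest p, Sh2b1 and 4 flanking genes, and genes called in a tissue contrast. Chga, Chgb, Sst, Cartpt, Zfp553, Htr2c, Trpv4, H1f5, Scara3 and Capn11 fall outside this rule and were named after their values were seen. The contrasts with hippocampus and striatum were fitted on 33 Del/+ and wt brain arrays. Mouse numbers recur between tissues and were used as a block in an alternative, beside other filters, moderation, weights, normalization, blocks and samples. Members and lists were chosen with earlier results of these data known. Results for a few genes, 1 of which lies in the interval, are left out. Liver arrays were not used.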

Additional observations from a re-analysis of the deposited data

Results flagged for a closer look

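Among the 6 wt values of 51 genes, 3 held an array that lay far from the other 5 by Dixon's 95% criterion for the gap over the range, where chance alone gives such a gap in about 1 group of 20. Gdf11 had 7.37 in wt 16 and 7.63 to 7.77 in the other wt arrays, the gap being 0.643 of the range. Mpzl2 had 7.08 in wt 20 and 6.71 to 6.80 in the others (0.755), and 9130019O22Rik had 5.32 in wt 10 and 5.78 to 5.98 in the others (0.702).

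The genotype difference of Slc15a2 in the cerebellum differed from that in the hippocampus by -1.32 and from that in the striatum by -1.22 on the log2 scale, a limma contrast that passed at 5% FDR and that was lost without Del/+ 28, without Del/+ 17 and in fits of only the 2 tissues compared.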

How the results depend on the processing

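The count of region probe sets called lower, 12, was 7 with no filter and 0 with the filter worked out over the 9 arrays, with the array set as a block and with the choroid plexus mean as a covariate, an alternative chosen after seeing the data, and it was 0 to 5 when 1 array was left out; the cause was not tested. It stayed within 1.5 times of 12 with the signal filter alone (13), all 12 cerebellum arrays (16), a variance trend (14), a second quantile normalization (14) and array weights (8). Outside the region 0 probe sets passed at 5% FDR under every alternative run, and at 10% FDR 1 passed with no filter (H1f5), 1 with the filter over the 9 arrays (Slc15a2), 2 with the array set as a block, 1 with all 12 arrays (Slc15a2) and 0 to 2 with 1 array left out (Scara3 and Capn11 without Del/+ 28). The mean difference of the region genes, -0.60, was -0.76 when each array was summarised by the median signal of its region genes in place of their mean, and -0.71 as a mean over kept genes, and -0.61 to -0.58 with 1 array left out. The call in each tissue contrast, 1, was 0 with only the 2 tissues compared and 0 to 1 without 1 Del/+ cerebellum array, and it was 1 with the mouse number as a replicate block, which left both counts as they were. Of 2126 recomputed values of 120 named genes, 1955 kept direction and side of the threshold, 155 lost a call, all of them in the 12 region probe sets called or in the Slc15a2 contrasts, 11 gained a call and 5 changed sign. Those 5 were the joint Doc2a and Ino80e probe set, at -0.11 to 0.10 with 1 array left out, and Igfbp2, at -0.19 with the choroid plexus covariate. Signals near background, under 4.03, limit what can be said of Tafa2, Trhr2, Pkd2l1 and AI467606.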
